A study of Mus musculus with 9 samples.

Results

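Genomic imprinting leaves a gene expressed mainly or wholly from the copy inherited from the mother or from the father. This account follows 10 imprinted genes of the mouse, Kcnq1ot1, Meg3, H19, Peg3, Cdkn1c, Plagl1, Grb10, Ndn, Nnat and Snrpn, in the hippocampus of mice that inhaled linalyl acetate (LA), the main ester of lavender and bergamot oils. Members were taken by gene symbol, alone or as part of a list of symbols, and were picked with results of these arrays already known. Of the 10 genes, 9 matched a symbol, each in 1 of the 22206 transcript clusters (groups of probes for 1 transcription unit), and Meg3 is not analysed here. Of the 9 clusters, 7 lay among the 13323 above the filter on low signals, which asked for a mean over all 9 arrays above the 40th percentile (a log2 signal of 5.98). H19 and Cdkn1c lay below it, and 2 clusters also carry a neighbour's symbol (Mir675 with H19, Snurf with Snrpn).

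The animals were male mice of the outbred ICR strain, 8 weeks old, and none carried an engineered allele by the labels. The vehicle group was exposed to 1% Tween 80, a detergent, and the other groups to LA at 1% or at 10%, by whole-body inhalation with an aroma diffuser for 7 days. These groups follow the sample titles. Some sample descriptions tell instead of oral dosing, injections and lipopolysaccharide (LPS, a bacterial endotoxin), and the labels do not settle the conflict. A tail suspension test came after 30 min of inhalation, so all groups were also handled and tested. Each group had 3 arrays, from 100 ng of total RNA, and the labels leave unsaid whether an array held 1 mouse or a pool and whether the LA groups received the detergent as well. Clariom S arrays probe whole transcripts in dissected tissue and cannot tell the parental alleles apart.

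Most of the 10 genes sit in clusters of imprinted genes governed by a control region methylated on only the maternal or the paternal copy. Kcnq1ot1 is the best studied regulator among them: this long noncoding RNA is read from the paternal copy, in the antisense direction, out of an intron of the potassium channel gene Kcnq1, and it silences neighbouring genes on the same chromosome. Others are a growth-restraining noncoding RNA (H19), a cyclin-dependent kinase inhibitor (Cdkn1c), transcription factors of the zinc finger kind (Peg3, Plagl1), and genes active in neurons (Ndn, Nnat, Snrpn). In RefSeq, 6 of the 10 genes lie on chromosome 7, and Nnat, Plagl1, Grb10 and Meg3 lie on chromosomes 2, 10, 11 and 12.

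The promoters of Kcnq1ot1, Plagl1 and Nnat are shown because these were the 3 genes with the largest differences between LA and vehicle. They come from RefSeq on assembly GRCm38.p6, 5′ to 3′ on the gene's own strand, with each CG dinucleotide, the site of DNA methylation, in capitals. For Kcnq1ot1 (minus strand, chr7:143296498-143296797) the window runs from 250 bases before the start of transcription to 50 after it. For Plagl1 (plus strand, chr10:13090582-13090831) and Nnat (plus strand, chr2:157559828-157560077) only the 250 bases before the start are printed.
Kcnq1ot1: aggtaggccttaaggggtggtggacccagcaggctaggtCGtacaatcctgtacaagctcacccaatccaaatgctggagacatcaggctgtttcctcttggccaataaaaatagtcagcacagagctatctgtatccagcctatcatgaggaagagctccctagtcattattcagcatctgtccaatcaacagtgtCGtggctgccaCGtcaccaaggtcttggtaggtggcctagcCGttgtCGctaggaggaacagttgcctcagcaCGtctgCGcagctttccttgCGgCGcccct
Plagl1: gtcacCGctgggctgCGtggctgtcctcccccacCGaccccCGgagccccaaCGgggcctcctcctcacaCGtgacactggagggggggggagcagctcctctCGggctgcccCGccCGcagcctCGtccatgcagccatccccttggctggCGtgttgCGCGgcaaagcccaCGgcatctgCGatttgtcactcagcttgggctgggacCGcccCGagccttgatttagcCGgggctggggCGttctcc
Nnat: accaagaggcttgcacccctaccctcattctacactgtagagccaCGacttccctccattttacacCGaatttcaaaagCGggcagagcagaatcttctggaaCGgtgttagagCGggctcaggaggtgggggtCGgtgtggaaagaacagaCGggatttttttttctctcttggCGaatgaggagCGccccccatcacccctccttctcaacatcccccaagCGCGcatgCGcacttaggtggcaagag
The full window of 300 bases held 9 CG dinucleotides for Kcnq1ot1, 26 for Plagl1 and 17 for Nnat, against a median of 7 over 32851 promoters. At least 9 were found in 45.8% of all promoters, and at least 26 in 16.9%. The letters TGCCGC, the sequence that the imprint-keeping protein ZFP57 binds when it is methylated, were searched on both strands. They were present in 5 of the 13 promoter windows of the 8 genes of the 10 with a promoter entry (1 each for Meg3, Plagl1, Grb10, Nnat and Snrpn) and in 11.6% of all promoters. The Kcnq1ot1 window held no match. No methylation was measured on these arrays.

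Kcnq1ot1 was higher after LA than after vehicle at both doses, and it stood apart because of a low signal on 2 vehicle arrays. In the vehicle group its log2 signals were 9.12, 7.08 and 6.98. After 1% LA they were 9.61, 9.33 and 9.40, and after 10% LA they were 9.41, 9.24 and 9.34. The first vehicle array sat just beneath the 6 LA arrays, 0.12 below the lowest of them, while the second and the third vehicle arrays lay 2.04 log2 units (4.11-fold) below all the others. Group means were 7.73 ± 1.21 for vehicle, 9.45 ± 0.15 for 1% LA and 9.33 ± 0.09 for 10% LA (SD, n = 3 each). The log2 difference from vehicle was 1.72 (SE 0.44) at 1% LA, a 3.29-fold higher signal, and 1.60 (SE 0.44) at 10% LA, a 3.04-fold higher signal. Between the doses the difference was -0.12 (SE 0.44), smaller than its error. In dissected tissue, fewer cells of a type and less of the RNA per cell cannot be told apart.

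The deposited series matrix, a second table of values for the same arrays, gave another value on the array that mattered. It listed Kcnq1ot1 at 9.18, 7.17 and 9.43 for vehicle, at 9.61, 9.41 and 9.50 for 1% LA and at 9.45, 9.19 and 9.44 for 10% LA. The third vehicle array thus read 6.98 in the signal table and 9.43 in the matrix, so that only the second vehicle array was low in the matrix, 2.00 log2 units (4.01-fold) below the rest. The differences from vehicle were then 0.91 at 1% LA and 0.77 at 10% LA, and neither LA group lay wholly above the vehicle group. This array differed between the tables as a whole: its columns correlated at 0.981 over the clusters with 1778 clusters more than 1 log2 unit apart, while each other array correlated at 0.9993 or more with at most 1 such cluster. For the imprinted genes the 2 tables differed by at most 0.101 on each of those 8 arrays. No source used here settles which column is that sample's own. With that array left out of the matrix, the differences were 1.33 and 1.19.

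**Figure D1:**
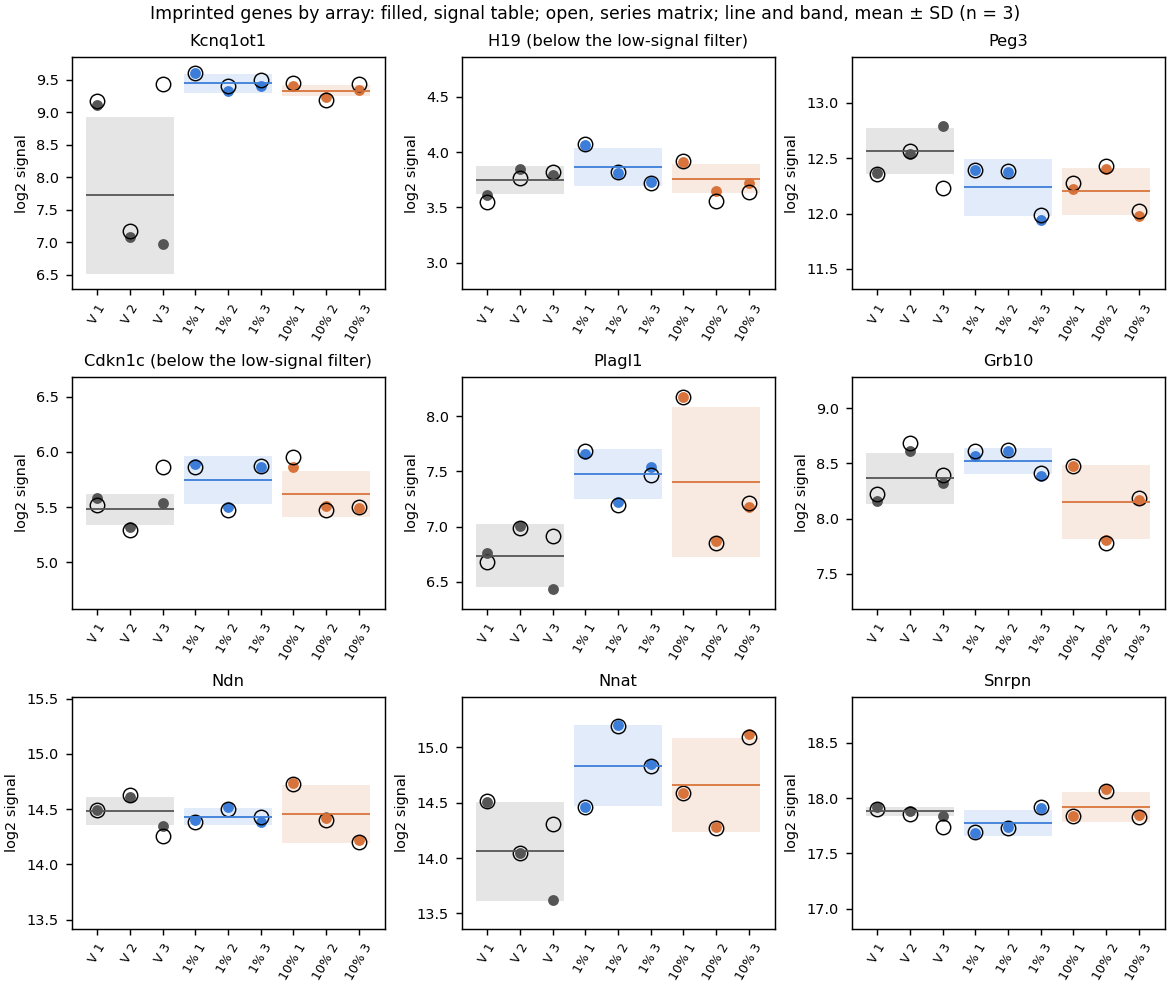
Log2 signal (vertical axis) of the 9 matched genes on each array (horizontal axis; V, vehicle; 1% and 10%, LA), with filled points from the signal table, open points from the series matrix, and lines and bands for the mean ± SD of 3 arrays in the signal table. Kcnq1ot1 is low on vehicle arrays 2 and 3 (7.08 and 6.98), and on the third vehicle array it is 9.43 in the series matrix.

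The choice of Kcnq1ot1 rested on the LA contrasts, so these differences are a description, and their tests support nothing. In limma's moderated test over the 13323 clusters, Kcnq1ot1 had a Benjamini-Hochberg adjusted p of 0.356 at 1% LA and 0.312 at 10% LA. Leaving out the first vehicle array, whose signal was like those of the LA arrays, raised the differences to 2.42 and 2.30 with adjusted p of 0.000483 and 0.000954. In that fit 222 clusters passed at 1% LA and 533 at 10% LA. Leaving out the second vehicle array gave 1.40 and 1.28, and leaving out the third gave 1.35 and 1.23, none of them past the adjusted threshold of 0.05. The authors' deposited table gives Kcnq1ot1 a vehicle average of 7.03, close to the 2 low arrays and not to the plain mean of 7.73, with folds of 5.21 at 1% LA and 4.92 at 10% LA. The FDR values beside these in the authors' deposited table are 0.444 and 0.411.

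**Figure D2:**
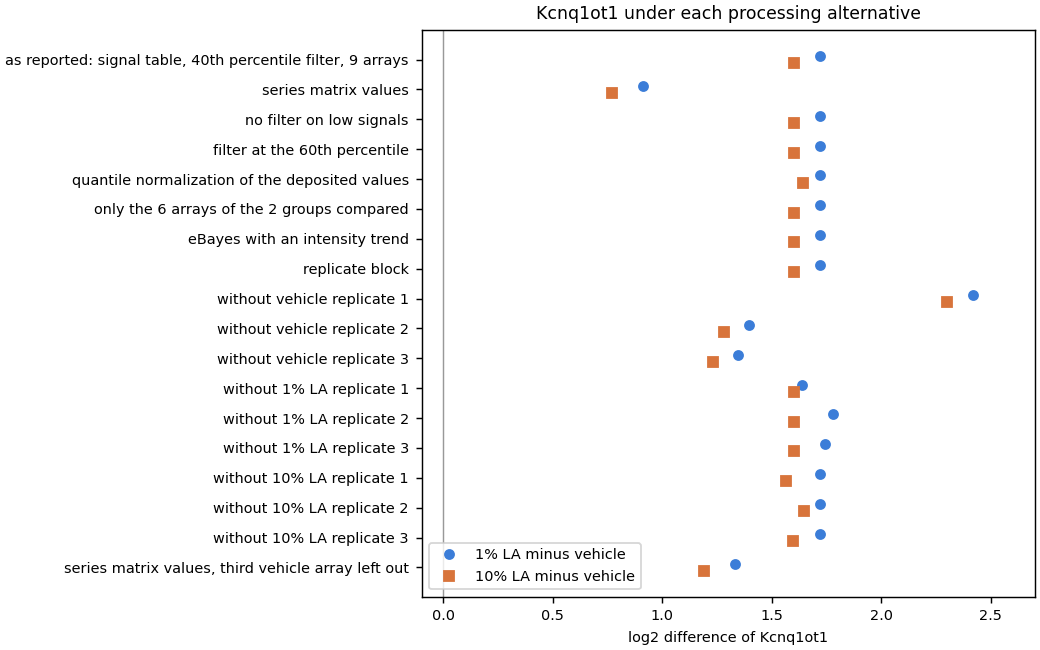
Log2 difference of Kcnq1ot1 from vehicle (horizontal axis) at 1% LA (circles) and 10% LA (squares) under each processing alternative (vertical axis). The values lie between 0.77, from the series matrix, and 2.42, without the first vehicle array, and all lie above 0.

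The vehicle spread of Kcnq1ot1 was unusual for these arrays. An SD of 1.21 or more within the vehicle group was found in 45 of 13323 clusters (0.338%), where the median SD was 0.261. In the LA groups its SDs of 0.15 and 0.09 lay below the median SDs of 0.208 and 0.220. The second and the third vehicle arrays both lay below the other 7 arrays in 1778 of 13323 clusters and above them in 1682. By more than 1 log2 unit they lay below in 28 clusters and above in 2. At more than 2 log2 units there were 3 below, Kcnq1ot1 among them, and 0 above. In the series matrix 0 clusters had both arrays apart by more than 1 log2 unit either way. There the second vehicle array alone lay below the other 8 arrays in 2606 clusters and above them in 2704. It was more than 2 log2 units below them in 4 clusters, again with Kcnq1ot1 among them. The pattern was taken from the values of Kcnq1ot1, so its place in these counts was fixed beforehand and supports nothing.

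In the signal table, markers of 2 other cell kinds were lowest on the same vehicle arrays. The mean log2 signal of 10 microglia markers was 7.74, 7.48 and 7.17 in the vehicle group, 7.69 to 7.98 after 1% LA and 7.73 to 8.50 after 10% LA. That of 10 markers of precursor cells was 8.51, 8.26 and 8.02 in the vehicle group and 8.57 to 9.01 on the LA arrays. By matrix values the third vehicle array read 7.73 for microglia and 8.75 for precursors, within the LA ranges there (7.68 to 8.55 and 8.60 to 9.06), while the second stayed the lowest at 7.51 and 8.35. All 10 markers of each list were above the filter. The part of these cells in the Kcnq1ot1 signal was not tested. The mean of the choroid plexus markers was 6.82, 9.40 and 6.87 on the vehicle arrays, lowest on the first and the third, and the third read 10.77 in the series matrix. The host gene Kcnq1 lay below the filter, at 3.08 to 3.70.

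The genes whose signals ran closest to Kcnq1ot1 over the 9 arrays were found among the named clusters with 1 symbol. They were Dhrs1, a dehydrogenase gene (Pearson r = 0.967 over 9 arrays), Rpl31, a ribosomal protein gene with near-identical processed copies (0.963), Mios, a subunit gene of a complex in nutrient signalling (0.963), Kbtbd11, a kelch repeat gene (0.962) and Zfp644, a zinc finger gene (0.962). With matrix values their r with Kcnq1ot1 was 0.959, 0.920, 0.911, 0.924 and 0.930. Kbtbd11 read 12.23, 9.41 and 9.41 in the vehicle group and 11.53 to 11.86 on the LA arrays, the same split of the vehicle arrays. The 9 arrays share 1 normalization and the same low vehicle arrays, so these values describe likeness only. Of 13322 other clusters, 233 had an r above 0.9 with Kcnq1ot1 and 141 had an r below -0.9, and with matrix values 91 and 50.

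Of the other genes of the Kcnq1 domain, Cd81 had the largest difference. Of 12 genes listed for the domain, 7 were above the filter with Kcnq1ot1 among them, and 0 passed the adjusted threshold in limma at either dose. Slc22a18, a transporter gene silenced on the paternal copy, read 5.76, 6.0 and 5.57 after vehicle and 6.23, 6.28 and 6.21 after 1% LA, groups that did not overlap, and was higher by 0.46 (SE 0.19). At 10% LA it was higher by 0.33 with overlapping groups. Its matrix differences were 0.21 and 0.07, and its groups overlapped at both doses. Cd81, a tetraspanin gene, read 17.42, 16.79 and 16.43 after vehicle and 18.23, 17.03 and 18.22 after 10% LA. Its difference was 0.95 (SE 0.33) at 10% LA and 0.65 at 1% LA, and 0.48 and 0.19 in the series matrix. Tssc4 differed by -0.31 and -0.09 at 1% and 10% LA, Nap1l4, a histone chaperone gene, by -0.03 at both, Tspan32 by 0.02 and -0.02, and Th, the rate-limiting enzyme of catecholamine synthesis, by -0.10 and 0.08. Besides Cdkn1c, the maternally expressed genes Kcnq1, Phlda2, Ascl2 and Osbpl5 lay below the filter, where a difference is hard to see.

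Cdkn1c, the growth-restraining inhibitor that Kcnq1ot1 silences on the paternal copy, read 5.58, 5.32 and 5.54 after vehicle, 5.89, 5.50 and 5.86 after 1% LA and 5.86, 5.51 and 5.49 after 10% LA. In the series matrix the values were 5.52, 5.29 and 5.87, then 5.87, 5.47 and 5.87, then 5.96, 5.48 and 5.50. The groups overlapped in both tables. The differences, from a fit with no filter, were 0.27 at 1% LA and 0.14 at 10% LA (SE 0.19). Of the other cyclin-dependent kinase inhibitors, 3 of the 7 listed with Cdkn1c were above the filter. Cdkn1a differed by -0.86 (SE 0.35) and -0.57, Cdkn2d by -0.22 and -0.39, and Cdkn1b by -0.02 and -0.15 at 1% and 10% LA. The matrix differences were -0.36 and -0.03 for Cdkn1a, -0.35 and -0.53 for Cdkn2d, and -0.17 and -0.27 for Cdkn1b.

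Plagl1, a paternally expressed transcription factor gene known to act on other imprinted genes, was the other member whose vehicle and 1% LA values did not overlap. Its log2 signals were 6.76, 7.01 and 6.44 after vehicle, 7.66, 7.22 and 7.54 after 1% LA and 8.17, 6.87 and 7.18 after 10% LA. Matrix values were 6.68, 6.99 and 6.92, then 7.68, 7.19 and 7.47, then 8.17, 6.85 and 7.22. All 3 arrays of 1% LA lay above the vehicle arrays in both tables, while the second 10% LA array lay among them. The differences were 0.74 at 1% LA and 0.67 at 10% LA (SE 0.30), and 0.58 and 0.55 in the series matrix. The spread after 10% LA was wide, with an SD of 0.68 that 2.19% of clusters reached. In the authors' deposited table the folds are 1.71 and 1.37, with FDR values of 0.482 and 0.452.

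Markers of the choroid plexus, the tissue that secretes cerebrospinal fluid next to the hippocampus, are given beside Plagl1. In the signal table its order of arrays was in part like theirs. Of 20 such markers 19 were above the filter, and their mean log2 signal was 6.82, 9.40 and 6.87 after vehicle, 11.11, 10.18 and 10.09 after 1% LA and 10.68, 7.78 and 9.26 after 10% LA. For both Plagl1 and these markers the second array was the highest of the vehicle group, the first array was the highest of each LA group, and the second was the lowest of the 10% LA group. The lowest vehicle array was the third for Plagl1 and the first for the markers. After 1% LA the lowest was the second for Plagl1 and the third for the markers. By the series matrix, the marker mean on the third vehicle array was 10.77 with Plagl1 at 6.92. That array was then the highest of the vehicle group for the markers and not for Plagl1. All 19 markers were higher after 1% LA in both tables. After 10% LA all 19 were higher in the signal table, with a median difference of 1.41. In the series matrix 13 were higher and 6 lower at that dose, with a median of 0.18. Of the meningeal fibroblast list 12 of 15 were above the filter, with means of 7.15 to 7.44 after vehicle, 7.58 to 7.89 after 1% LA and 7.09 to 7.71 after 10% LA. Markers of subiculum and cortex ran the other way, at 9.80 to 10.05 after vehicle, 8.59 to 9.32 after 1% LA and 8.92 to 9.78 after 10% LA. In the series matrix the fibroblast means were 7.23 to 7.91 after vehicle and overlapped 1% LA, at 7.61 to 7.94. Those of subiculum and cortex were 9.42 to 10.04 after vehicle and 8.63 to 9.28 after 1% LA there. The microglia and precursor marker means were also highest on the first 10% LA array, at 8.50 and 9.01, where Plagl1 was highest. Over the 9 arrays Plagl1 had an r of 0.876 with the choroid plexus mean and 0.868 with the precursor mean. With matrix values these were 0.687 and 0.802. With the subiculum and cortex mean its r was -0.872 in both tables. How far any of these cells carried the Plagl1 signal was not tested. For the hippocampus itself, 9 of 10 dentate granule cell and 10 of 10 pyramidal cell markers were above the filter, while of 10 markers of hypothalamus and thalamus 5 were above it and 5 (Agrp, Hcrt, Pomc, Avp and Lef1) below.

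**Figure D3:**
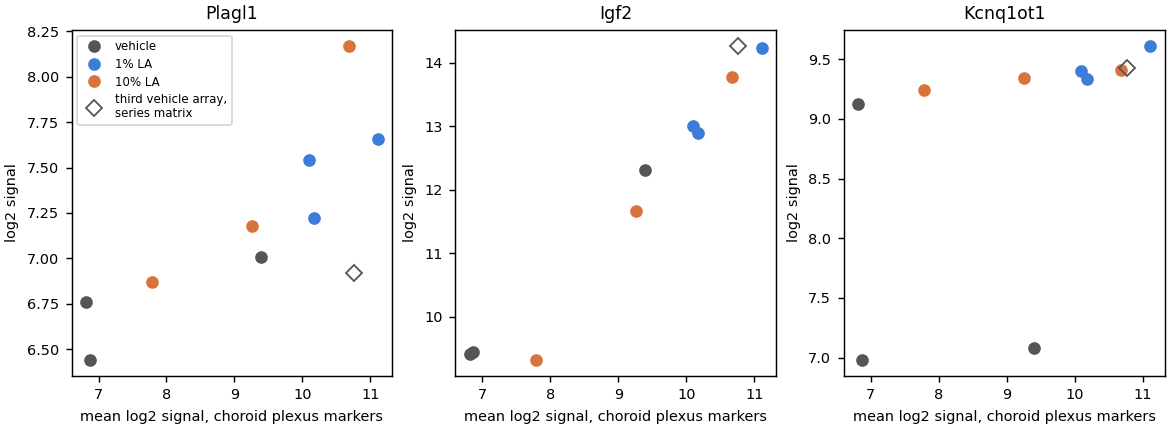
Log2 signal of Plagl1, Igf2 and Kcnq1ot1 (vertical axes) against the mean log2 signal of 19 choroid plexus markers (horizontal axes), 1 filled point per array from the signal table and an open diamond for the third vehicle array in the series matrix. On the first vehicle array, at a marker mean of 6.82, Igf2 is 9.41 and Kcnq1ot1 is 9.12, and the lowest Igf2 signal is 9.32 at a marker mean of 7.78.

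Genes known as targets or partners of Plagl1 were followed through a list of 14 with Plagl1 included, of which 10 were above the filter. At 1% LA 3 of them had an unadjusted p under 0.05, all higher, and at 10% LA 2 were higher and 1 lower, beside 11.9% and 13.9% of all clusters, with 0 past the adjusted threshold of limma at either dose. Plagl1, picked on these contrasts, is among those higher at each dose and enters the medians below. By the matrix the counts were 1 higher at 1% LA and 0 at 10% LA, beside 4.83% and 5.70% of all clusters. The median difference of the listed genes was 0.35 at 1% LA and 0.33 at 10% LA. Over all clusters above the filter it was -0.0033 and -0.017. Matrix medians were 0.20 and 0.014, with 5 genes higher and 5 lower at 10% LA. Igf2, a growth factor gene, read 9.41, 12.32 and 9.44 after vehicle, 14.24, 12.89 and 13 after 1% LA and 13.78, 9.32 and 11.67 after 10% LA. These values were nearly in the order of the choroid plexus marker means given above, whose part was not tested, and Igf2 is known to be made by choroid plexus and meninges. Its difference was 2.99 (SE 1.00) at 1% LA and 1.20 at 10% LA, and in the series matrix, where the third vehicle array read 14.27, 1.39 and -0.44. Dcn, a proteoglycan gene of meningeal fibroblasts, differed by 1.35 (SE 0.60) and 0.71, and by 0.98 and 0.32 in the series matrix. Mest, a paternally expressed gene, differed by 0.62 (SE 0.34) and 0.56, and Sgce, the sarcoglycan gene of myoclonus dystonia, by 0.31 and 0.62 (SE 0.24). For Sgce the series matrix gave 0.02 and 0.34, and for Mest 0.73 and 0.65.

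Nnat, a paternally expressed gene for a small membrane protein of neurons that influences calcium stores, was higher on average after LA with groups that overlapped. Its log2 signals were 14.51, 14.05 and 13.62 after vehicle, 14.46, 15.20 and 14.85 after 1% LA and 14.59, 14.28 and 15.12 after 10% LA. The matrix listed 14.52, 14.05 and 14.31, then 14.46, 15.19 and 14.83, then 14.59, 14.28 and 15.09. The first vehicle array lay above the first array of 1% LA and the second of 10% LA in both tables. The differences were 0.78 at 1% LA and 0.60 at 10% LA (SE 0.28), and 0.54 and 0.36 in the series matrix. Its host gene Blcap, in whose intron Nnat lies, differed by 0.12 and -0.12 (SE 0.17).

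Peg3, a paternally expressed zinc finger gene tied in mice to maternal care and growth, was lower on average after LA by less than 2 of its standard errors. Its log2 signals were 12.37, 12.54 and 12.79 after vehicle, 12.39, 12.38 and 11.94 after 1% LA and 12.22, 12.40 and 11.98 after 10% LA. By the series matrix it read 12.36, 12.56 and 12.23, then 12.40, 12.39 and 11.99, then 12.28, 12.43 and 12.02. The groups overlapped, and the highest value, on the third vehicle array, was not high in the matrix. The differences were -0.33 and -0.37 (SE 0.20), and -0.13 and -0.14 in the series matrix. Its neighbour Usp29, paternally expressed from the opposite strand, read 9.67, 9.38 and 9.40 after vehicle and 9.85, 10.27 and 10.06 after 1% LA, without overlap. Usp29 was higher by 0.58 at 1% LA and 0.69 at 10% LA (SE 0.28), and by 0.58 and 0.72 in the series matrix. Zim1, a maternally expressed zinc finger gene of the same domain, differed by 0.40 and 0.72 (SE 0.33), and by 0.14 and 0.47 in the series matrix.

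Ndn and Snrpn, paternally expressed genes of the domain lost in Prader-Willi syndrome, differed from vehicle by less than their standard errors at both doses. Ndn, a gene of the MAGE family that promotes neuronal differentiation and survival, read 14.49, 14.61 and 14.35 after vehicle, 14.40, 14.52 and 14.38 after 1% LA and 14.74, 14.42 and 14.22 after 10% LA. Series matrix values were 14.49, 14.63 and 14.25, then 14.38, 14.50 and 14.43, then 14.73, 14.40 and 14.21. Its differences were -0.05 and -0.02 (SE 0.18). The groups overlapped in both tables.

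Snrpn, which encodes a splicing protein of neurons and shares its transcript and cluster with Snurf, read 17.92, 17.88 and 17.84 after vehicle, 17.68, 17.74 and 17.91 after 1% LA and 17.84, 18.08 and 17.85 after 10% LA. In the matrix it read 17.90, 17.86 and 17.74, then 17.69, 17.73 and 17.92, then 17.84, 18.06 and 17.83. Its differences were -0.10 and 0.04 (SE 0.16), again with overlapping groups. Of the other genes of that domain, Ube3a, the ubiquitin ligase gene silenced on the paternal copy in neurons, differed by 0.28 and 0.36 (SE 0.19). Atp10a differed by -0.16 and -0.53 (SE 0.21), and by 0.20 and -0.22 in the series matrix, so that its direction at 1% LA turned. Magel2, Mkrn3 and Peg12 lay below the filter.

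Grb10, an adaptor gene that restrains insulin and insulin-like growth factor receptors and is paternally expressed in mouse neurons, had its lowest value after 10% LA. It read 8.16, 8.61 and 8.32 after vehicle, 8.57, 8.61 and 8.39 after 1% LA and 8.48, 7.81 and 8.17 after 10% LA. The matrix values of the 3 groups were 8.23, 8.68 and 8.39, then 8.61, 8.62 and 8.41, then 8.48, 7.78 and 8.19. The low value was that of the second 10% LA array. Grb10 differed from vehicle by 0.16 at 1% LA and -0.21 at 10% LA, and between the doses by -0.37 (SE 0.20), the largest difference between doses among the 7 genes. Ddc, the gene next to it in RefSeq, lay below the filter.

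A list of 17 genes of insulin and insulin-like growth factor signalling had 16 above the filter. At an unadjusted p under 0.05 there were 2 higher and 0 lower at 1% LA and 0 at 10% LA. Over all clusters 11.9% and 13.9% met that threshold. The adjusted threshold of limma was passed by 0 at either dose. With matrix values 0 met the unadjusted threshold at either dose, beside 4.83% and 5.70% of all clusters. The largest differences were those of Igf2, given above, and Igfbp2, a binding protein gene of choroid plexus and meninges, at 2.36 (SE 0.87) and 1.11 at 1% and 10% LA, and 1.24 and -0.06 in the series matrix. Irs2 and Igf2r, an adaptor gene and the maternally expressed receptor that clears Igf2, differed by 0.44 and 0.39 at 1% LA, and by 0.0084 and 0.29 in the series matrix. Igfbp6 and Insr, the insulin receptor gene, differed by -0.49 and -0.41 at 10% LA, and by -0.13 and -0.31 in the series matrix.

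H19, the maternally expressed noncoding RNA next to Igf2 and the host of Mir675, was at the low end of the array. It read 3.61, 3.85 and 3.79 after vehicle, 4.06, 3.81 and 3.73 after 1% LA and 3.91, 3.65 and 3.72 after 10% LA. In the second table it read 3.55, 3.76 and 3.82, then 4.07, 3.82 and 3.72, then 3.92, 3.56 and 3.64. The groups overlapped, with differences of 0.12 and 0.01 (SE 0.17) from the fit with no filter. Ins2, the other gene of that domain, was also below the filter.

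For the Dlk1-Dio3 domain, home of Meg3, 4 of 7 listed genes matched a symbol. Begain, a postsynaptic protein gene at the edge of the domain, was the gene above the filter, at 10.16, 11.07 and 11.53 after vehicle, 10.22, 10.46 and 10.21 after 1% LA and 10.01, 10.39 and 9.74 after 10% LA. It differed by -0.62 and -0.87 (SE 0.30), and by -0.10 and -0.37 in the series matrix, where the third vehicle array read 10.04. The paternally expressed genes Dlk1, Rtl1 and Dio3 lay below the filter.

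**Figure D4:**
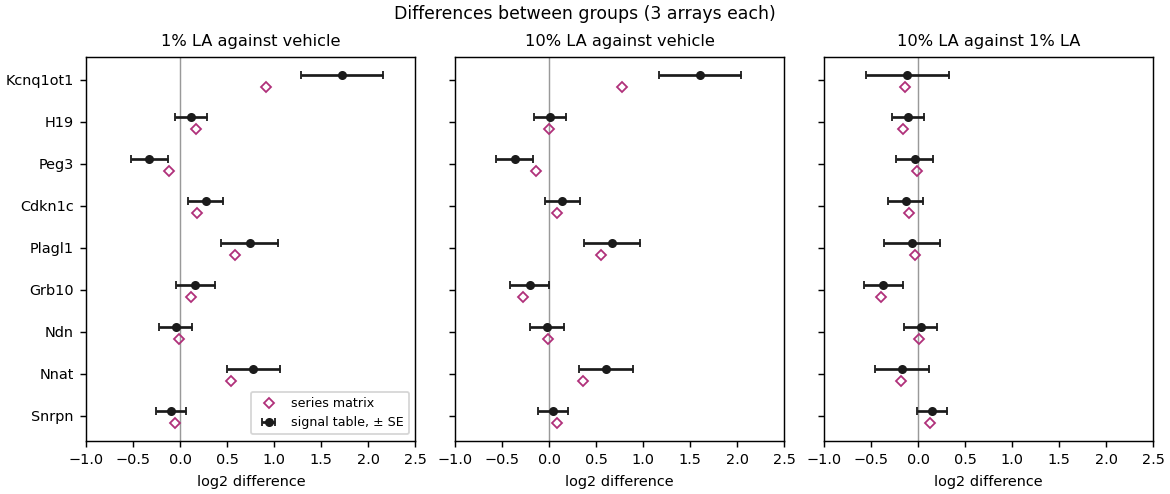
Log2 differences (horizontal axes) of the 9 matched genes (vertical axis) for 1% LA against vehicle, 10% LA against vehicle and 10% against 1% LA, with black points ± SE from the signal table and open diamonds from the series matrix. Kcnq1ot1, Plagl1 and Nnat lie above 0 against vehicle in both tables, and the differences between the doses lie between -0.37 and 0.15 in the signal table.

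Counted together, 0 of the 7 imprinted genes above the filter passed an adjusted p under 0.05 in limma in any of the 3 comparisons, and neither did any other cluster, a background of 0%. At an unadjusted p under 0.05 there were 3 at 1% LA (Kcnq1ot1, Plagl1 and Nnat), where 11.9% of all clusters met that threshold. At 10% LA there were 2 (Kcnq1ot1 and Plagl1) against a background of 13.9%, and between the doses 0 against 2.03%. Groups did not overlap for 2 of the 7 at 1% LA, for 1 at 10% LA and for 0 between the doses, beside 14.4%, 14.6% and 6.24% of all clusters. In the series matrix the unadjusted counts were 0 at both doses, beside 4.83% and 5.70% of clusters, and the groups did not overlap for 1 gene (Plagl1) at 1% LA, beside 9.45%, and for 0 at 10% LA, beside 10.4%. Without the third vehicle array 1 gene at each dose had an unadjusted p under 0.05, and without the first vehicle array the groups did not overlap for 4 genes at 1% LA and 3 at 10% LA. A group of fewer arrays separates more easily for any cluster, and the shares over all clusters in these fits are not given here. Since the genes were picked on these contrasts, nothing is read from the counts. The median difference of the 7 genes was 0.16 at 1% LA and 0.04 at 10% LA. Both contrasts use the same vehicle arrays.

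After each group's mean was taken away, r over the 9 arrays ranged from -0.74 to 0.75 among the 36 pairs of matched genes, with a median of 0.05. The pairs with the highest and lowest r were H19 with Grb10 and H19 with Snrpn. H19 lay below the filter, at the low end of the array, which limits what its r shows. With matrix values the highest r was that of H19 with Plagl1 (0.80), and the lowest was again H19 with Snrpn (-0.74). These are descriptions over arrays that share a normalization.

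Beyond the members, 73 other imprinted genes were listed, 64 matched a symbol and 42 were above the filter, Snurf through the cluster it shares with Snrpn. At an unadjusted p under 0.05 there were 4 higher and 1 lower at 1% LA and 5 higher and 4 lower at 10% LA, to be read beside the backgrounds of 11.9% and 13.9%, and 0 passed the adjusted threshold of limma. With matrix values these counts were 2 higher and 1 lower, and 1 higher and 0 lower, beside 4.83% and 5.70% of all clusters. The median differences of the 42 were 0.05 and 0.03. Outside the domains of the members, the largest differences were those of Pon3, a lactonase gene, at 1.66 (SE 0.56) and 0.94 for 1% and 10% LA. They were 0.76 and 0.10 in the series matrix. Among the marker lists, r with Pon3 over the 9 arrays was highest for choroid plexus (0.944, and 0.901 with matrix values). It was lowest for subiculum and cortex (-0.915 and -0.878). The part of these cells in the Pon3 signal was not tested. Peg10, a retrotransposon-derived gene needed for the placenta, was higher by 0.92 (SE 0.39) at 10% LA, with its highest value of 8.52 on the first 10% LA array. In the signal table the marker means of microglia (8.50), precursors (9.01), astrocytes (12.79), oligodendrocytes (13.13) and endothelium (9.01) were also highest there. The part of these cells in the Peg10 signal was not tested. Inpp5f, a phosphoinositide phosphatase gene, read 10.31, 9.18 and 9.10 after vehicle, the split seen for Kcnq1ot1, and differed by 0.79 and 0.82 (SE 0.31). With matrix values the third vehicle array read 10.54, and the differences were 0.35 and 0.38. Zrsr1, a splicing factor gene, differed by -0.87 and -0.62 (SE 0.28), and by -0.67 and -0.45 in the series matrix.

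**Figure D5:**
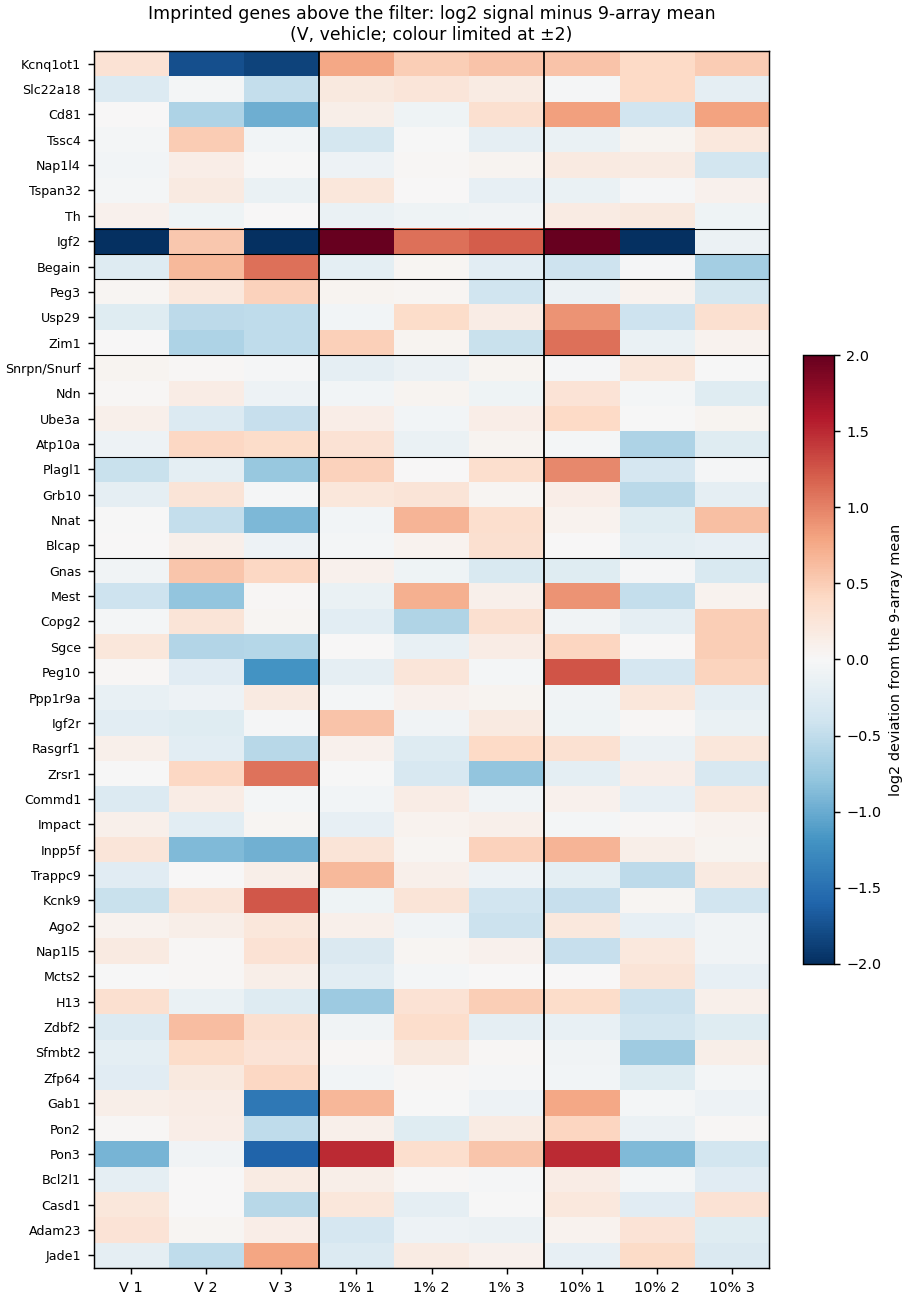
Log2 signal minus the 9-array mean (colour, limited at ±2) of each imprinted gene above the filter (rows, grouped by domain, the last block holding genes outside the domains of the members) on each array (columns; V, vehicle). Kcnq1ot1 is at least 2.04 lower on vehicle arrays 2 and 3 than on any other array, and Igf2 ranges from 9.32 to 14.24.

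Few other nuclear noncoding RNAs could be set beside Kcnq1ot1, since 6 of 29 listed matched a symbol and 5 were above the filter. Tug1, a long noncoding RNA that binds chromatin regulators, read 12.71, 10.80 and 10.63 after vehicle, 12.94, 12.65 and 13.38 after 1% LA and 13.70, 12.37 and 13.35 after 10% LA. As with Kcnq1ot1, the second and the third vehicle arrays were low, and the third read 13.08 in the series matrix. Its differences were 1.61 and 1.76 (SE 0.50), and 0.79 and 0.96 in the series matrix. By the signal table Miat, a nuclear RNA of neurons, ran the other way. It read 9.55, 10.66 and 10.54 after vehicle and 9.20 to 9.81 on the LA arrays, with differences of -0.75 and -0.79 (SE 0.28). With matrix values Miat was not high on the last vehicle array, at 9.42, and its differences were -0.47 and -0.46. Snhg11, a host of small nucleolar RNAs, differed by -0.72 at both doses (SE 0.27), and by -0.21 and -0.17 in the series matrix. Among these 5 RNAs, 4 had an unadjusted p under 0.05 at each dose, 2 higher and 2 lower, where 11.9% and 13.9% of all clusters met that threshold, and 0 passed the adjusted threshold of limma. Kcnq1ot1, picked on these contrasts, is among them. In the series matrix the counts were 0 at both doses, beside 4.83% and 5.70% of all clusters.

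The machinery that sets, keeps or erases imprints was followed through 28 genes, 23 of them above the filter. At an unadjusted p under 0.05 there was 1 higher and 1 lower at 1% LA, and at 10% LA 1 higher and 5 lower, beside 11.9% and 13.9% of all clusters, with 0 past the adjusted threshold of limma. The series matrix had 2 higher and 1 lower at 1% LA and 1 higher and 3 lower at 10% LA. Its shares over all clusters were 4.83% and 5.70%. The median difference of the 23 genes was -0.13 at 1% LA and -0.15 at 10% LA, beside -0.0033 and -0.017 over all clusters. Matrix medians of the 23 were -0.05 and -0.10. Tet2, which oxidises methylated cytosine, read 9.77, 9.01 and 8.29 after vehicle, 10.01, 10.43 and 9.97 after 1% LA and 10.18, 10.23 and 10.56 after 10% LA. All 6 LA arrays lay above the vehicle arrays, with differences of 1.11 and 1.30 (SE 0.31), and 0.58 and 0.79 in the series matrix. Its relative Tet3 differed by -0.51 at 1% LA (SE 0.18), and by -0.26 in the series matrix. The maintenance methyltransferase gene Dnmt1 differed by -0.36 at 1% LA (SE 0.23), and by -0.02 in the series matrix. At 10% LA the histone methyltransferase genes Ehmt2 and Setdb1 differed by -0.52 (SE 0.17) and -0.48 (SE 0.19), and Dnmt3a, which sets methylation in germ cells, by -0.45 (SE 0.17). These were -0.22, -0.37 and -0.42 in the series matrix.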

How the data were processed

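Hippocampal RNA was measured on 9 Clariom S arrays, 3 per group, with groups taken from the sample titles. Other label text conflicts with these: some sample descriptions tell of oral dosing, injections and LPS, and the design text names human cells. The deposited signal table holds log2 values normalized by the authors with robust multi-chip analysis in Transcriptome Analysis Console 4.0.2, as the design text and the submitters' processing notes state, per the labels. The deposited series matrix holds log2 values that the authors normalized by steps not named in its file. The authors' deposited comparison tables hold log2 group averages, signed linear fold values and each p-value with its FDR, per the file headers. No genome build is named in the sources used here.

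Values were used as deposited. Clusters with a mean log2 signal above the 40th percentile (5.98) were kept, 13323 of 22206. One fit with a mean per group was made in limma 3.58.1 (R 4.3.3), with moderated tests adjusted by the Benjamini-Hochberg method over all kept clusters and called at 0.05. H19 and Cdkn1c were fitted without the filter. Standard errors come from that fit, with a median of 0.213, and the number of arrays limits the precision. P-values measure the spread between these samples. The fit was tested on simulated data. Members, lists and tests were chosen with earlier results of these data known.

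All 10 genes and the genes of their domains are named. From each further list the 4 largest differences per dose are named, a gene of several lists once, and for Kcnq1ot1 the 5 clusters most like it. Predicted genes are not named. Examples beyond the rule, such as the microglia and precursor markers beside Kcnq1ot1, were chosen after their values were seen. Same-numbered arrays deviated together at r between -0.169 and 0.168 over the groups, and the main fit was not paired. Arrays with different numbers were not set beside these, so whether same-numbered samples shared a day or batch is not known. Alternatives changed the table, filter, normalization, samples fitted, variance trend, block and each array.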

Additional observations from a re-analysis of the deposited data

How the results depend on the processing

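The log2 differences of the imprinted genes moved by less than 1 SD between replicates in 352 of 354 recomputed values. The other 2 were Kcnq1ot1 in the series matrix, at 0.91 for 1% LA and 0.77 for 10% LA. Many of the 352 could not move. A changed filter, variance trend or block, or an array left out of the group not compared, leaves a difference of group means unchanged. The SD of Kcnq1ot1 is widened by its low vehicle arrays, so even 2.42 at 1% LA without the first vehicle array counted as unmoved. The count is therefore no measure of robustness. With series matrix values 0 genes had an unadjusted p under 0.05 at either dose, beside 4.83% and 5.70% of all clusters. The genes without overlap numbered 1 and 0, beside 9.45% and 10.4%. With the third vehicle array left out of the series matrix, an alternative chosen after seeing the data, 1 gene had an unadjusted p under 0.05 at each dose. A filter at the 60th percentile, which takes away a gene, left 1 gene without overlap at 1% LA and 1 with an unadjusted p under 0.05 at 10% LA. With only the 6 arrays of the groups compared, 1 gene had an unadjusted p under 0.05 at 10% LA. The shares over all clusters under that filter and in that fit are not given here, so nothing is read from these counts.

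Leaving out each array in turn gave 0 to 1 genes with an adjusted p under 0.05 at 1% LA and 0 to 1 at 10% LA, with the 1 found without the first vehicle array. Genes with an unadjusted p under 0.05 numbered 1 to 3 at 1% LA, with 1 left without the third vehicle array, 1 to 3 at 10% LA, and 0 to 1 between the doses, with 1 without the first 10% LA array. At 10% LA there was 1 such gene without the third vehicle array, without the first 10% LA array or without each of the 1% LA arrays, which enter only through the pooled spread. Genes without overlap numbered 2 to 4 at 1% LA, with 4 without the first vehicle array, 1 to 4 at 10% LA, with 3 and 2 without the first and second vehicle arrays and 4 without the second 10% LA array, and 0 to 2 between the doses, with 2 without the third 1% LA array or the first 10% LA array. A group of fewer arrays separates more easily for any cluster, and the shares over all clusters in the fits without an array are not given here. Nothing is therefore read from these counts. With the replicate number as a block the counts of unadjusted p under 0.05 were 3, 2 and 0 as without it, and no call changed. As far as the labels say, the same-numbered arrays share only a number.

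With 3 arrays per group and a median standard error of 0.213, small differences cannot be seen. H19, Cdkn1c and most maternally expressed genes of the Kcnq1 domain gave signals near the low end of the arrays, which limits what their values show.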
